A study of Homo sapiens with 4 samples.

Results

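The genes described here encode the digestive machinery of the cell: lysosomal enzymes and membrane proteins, the vacuolar proton pump, and proteins that build and mark autophagosomes. They are 61 of the 60617 rows of the count table. Of these, 38 were taken by name, and 23 are the rows whose symbol starts with ATP6V0 or ATP6V1, with 17 pseudogenes and hyphenated names left out. The 23 rows cover 22 proton pump subunit genes and ATP6V1FNB, a neighbour gene of ATP6V1F that is not a subunit.

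RNA sequencing was done on SCC13, a human line from a squamous cell carcinoma of the skin. The study concerned CELF2, an RNA-binding protein that regulates splicing and mRNA stability, in skin tumours. Control cells (2 samples) carried a lentiviral scrambled shRNA and knockdown cells (2 samples) a lentiviral shRNA against CELF2, so both groups had been infected. All 4 samples are labelled wild type, were grown in CnT-07, a keratinocyte medium, and come from 1 cell line. The sources used here do not give whether both knockdown samples carried the same shRNA sequence, or whether the 2 samples of a group came from separate cultures. The spread that the p-values rest on is thus that between these samples alone and may be technical.

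Lysosomes break down protein, sugar chains and lipids with enzymes that work in acid. The vacuolar proton pump makes the acid: its V1 sector, on the cytosolic side, splits ATP, and its V0 sector, in the membrane, moves the protons. Autophagy brings the cell's own material to lysosomes: the ULK1 kinase complex and the Beclin 1 lipid kinase complex start it, the ATG proteins extend the membrane, and lipid-bound ATG8 proteins (the LC3 and GABARAP families) sit on the finished vesicle and hold receptors such as SQSTM1 with their cargo. The transcription factors TFEB and TFE3 bind a short element around CACGTG in many of these genes, and the kinase MTORC1 keeps them in the cytosol when nutrients are plentiful.

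The element is shown here in the members' own promoters because it is what these factors bind. RefSeq promoter windows on GRCh38.p14, each of 300 bases with 250 before and 50 after the start site, were matched by symbol for 47 of the 61 members. Some genes have several windows, and a match in any of them counted. CACGTG was found for 12 of the 47 members (25.5%), against 12.4% of the 10588 tested genes with a window and 8.77% of all 27305 genes with one. For CD63 and ATP6V0E2 other windows of the same gene lack it. The longer TCACGTGA lay in 6 of the 47 (12.8%), against 2.17% of tested genes and 1.18% of all. Both motifs read the same on either strand, and every TCACGTGA contains a CACGTG. The 12 members were ATG14, ATP6V0B, ATP6V0D1, ATP6V0E2, ATP6V1G1, CD63, CTSA, CTSD, GAA, LAMP1, MCOLN1 and NEU1. A match is a run of letters and not a measured binding site. The first 7 of the following stretches of 30 bases hold TCACGTGA and the last 4 hold only CACGTG. Each is read along the gene's own strand, 5′ to 3′, with CACGTG in capitals.

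GAA, chr17:80101493-80101522, plus strand: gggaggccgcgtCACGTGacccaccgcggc

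GAA, chr17:80101538-80101567, plus strand: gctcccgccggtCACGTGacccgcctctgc

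LAMP1, chr13:113297199-113297228, plus strand: gacccgcgggatCACGTGacgcccgggcgc

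MCOLN1, chr19:7522571-7522600, plus strand: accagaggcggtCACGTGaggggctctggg

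CTSA, chr20:45891298-45891327, plus strand: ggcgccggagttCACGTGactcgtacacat

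ATP6V0D1, chr16:67481199-67481228, minus strand: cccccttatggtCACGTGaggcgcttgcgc

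ATP6V1G1, chr9:114587699-114587728, plus strand: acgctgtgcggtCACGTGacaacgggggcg

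ATP6V0E2, chr7:149872884-149872913, plus strand: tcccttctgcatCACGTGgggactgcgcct

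CTSD, chr11:1763957-1763986, minus strand: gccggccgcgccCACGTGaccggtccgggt

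ATG14, chr14:55411834-55411863, minus strand: aaaacaaaatccCACGTGactggctctcct

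NEU1, chr6:31862930-31862959, minus strand: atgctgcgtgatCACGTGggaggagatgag

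The 4 libraries held between 17649090 and 27898889 counts and detected 20733 to 22041 genes. Values below are CPM, counts per 1000000 counts of the library, on library sizes scaled by the TMM method, and 3 counts correspond to 0.107 to 0.178 CPM. CELF2 itself had 1 count in control 1 and 0 counts in each of the other 3 libraries. The exact Poisson 95% upper limits, which cover counting error only, were 0.122 and 0.0856 CPM, so its loss was not detectable at this depth and the target does not check the labels. All 10 keratinocyte markers were detected, with a summed level of 13144 and 20479 CPM in the controls and 27881 and 19496 CPM in the knockdown. Of other cell types, fibroblast markers summed to 13.3 and 16.3 CPM against 38.1 and 21.1 CPM with 2 of 7 detected, DCN, LUM, COL1A2 and COL3A1 being at 0. Macrophage and immune markers summed to 11.1 and 5.70 CPM against 24.6 and 8.93 CPM with 2 of 7 detected, TYROBP, PTPRC, CD163 and CD3E being at 0. Melanocyte markers summed to 6.12 to 9.05 CPM in the 4 libraries with 3 of 7 detected, TYR, SOX10, TYRP1 and MLANA being at 0, and the 5 endothelial markers to 0.357 to 2.23 CPM. In these bulk samples fewer cells of a type and less RNA per cell cannot be told apart.

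Among the members, GABARAPL1 alone passed the test, and it rose in the knockdown. No member passed in the other direction. A gene passed when its adjusted p (edgeR quasi-likelihood test, Benjamini-Hochberg over all tested genes) was below 0.05. Enough counts for testing were found for 58 of the 61 members. The 1 of 58 stands against 133 of all 15170 tested genes (0.877%), of which 92 were higher (0.606%) and 41 lower (0.270%). Without regard to the test, 46 of the 58 members (79.3%) had a log2 fold change above 0, against 49.7% of all tested genes. Both knockdown libraries were above both controls for 27 members (46.6%, against 27.1% of all tested genes), and both were below for 6 (10.3%, against 27.8%). The members' median log2 fold change was 0.21, against -0.0036 over all tested genes, and single members ranged from -0.76 to 1.88. For 22 members the log2 fold change lay within 0.2 of 0. At an unadjusted p below 0.05 there were 14 higher members and 1 lower, together 25.9% of the 58, against 22.1% of all tested genes. By direction, the latter were 1837 higher and 1513 lower genes of the 15170. The members made up 0.632% and 0.608% of all counts in the control libraries against 0.818% and 0.771%. DESeq2 called 6 members higher (ATP6V0E2, GAA, GABARAPL1, PSAP, SMPD1 and ULK1; over all genes 4.84%) and 1 lower (CTSC; over all genes 3.75%).

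**Figure D1:**
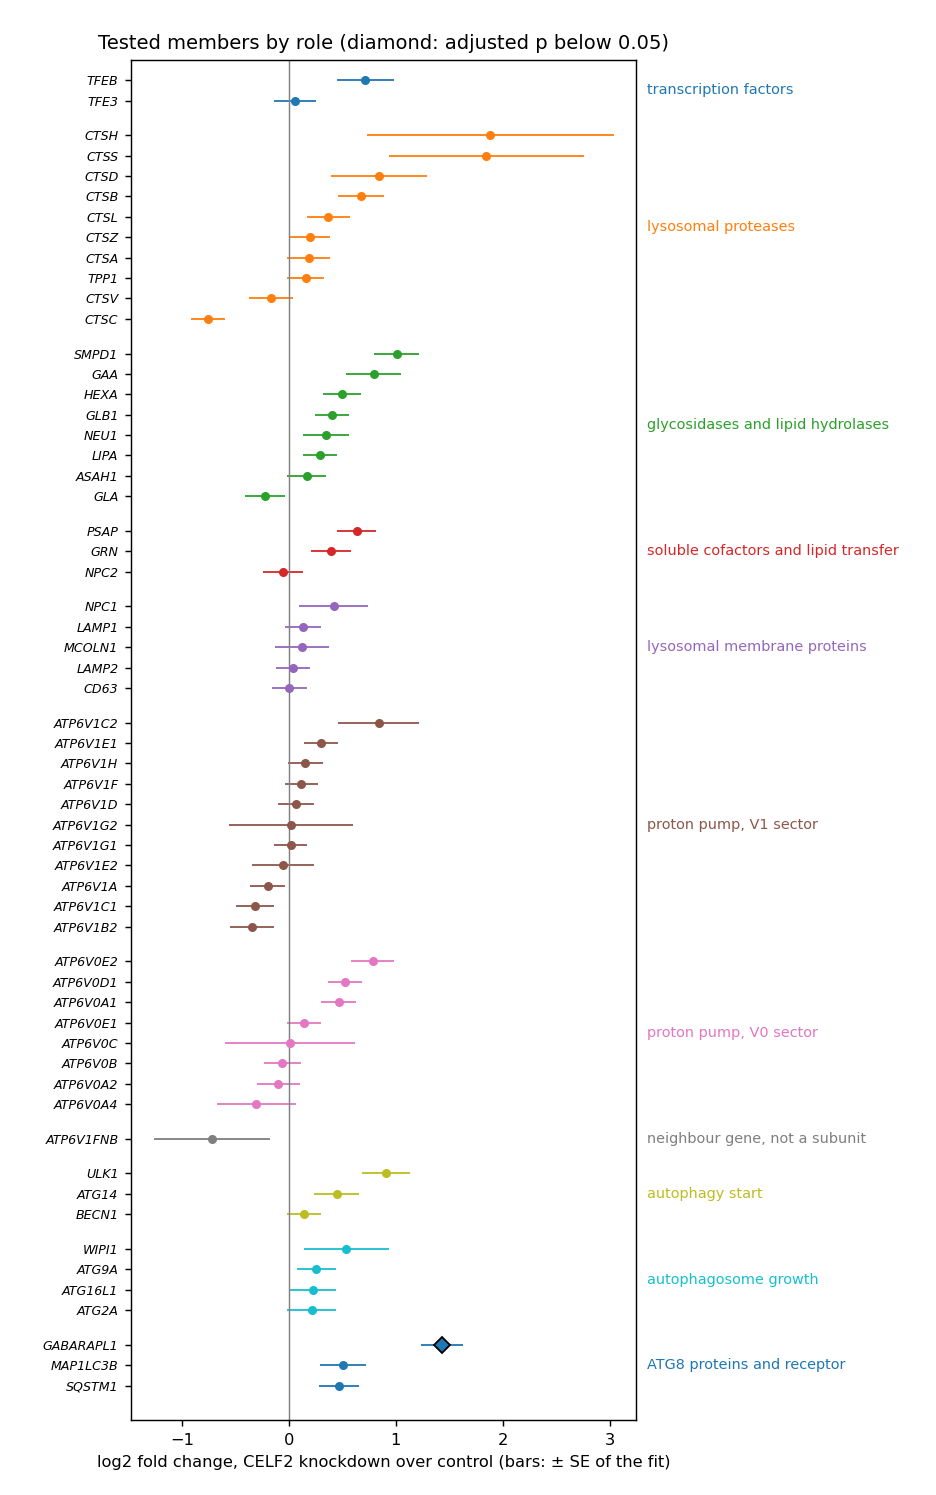
Log2 fold change of CELF2 knockdown over control (x axis) for the 58 tested members, grouped by role and colour, with bars for the standard error of the fit; the black-edged diamond marks an adjusted p below 0.05. GABARAPL1, at 1.43, is the sole diamond, all 10 autophagy members lie above 0, and CTSC, at -0.76, is the lowest member.

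The 10 autophagy members lay in 1 direction. Their median log2 fold change was 0.46, all 10 values lay above 0, and for 7 of them both knockdown libraries lay above both controls. Over all tested genes 49.7% of values lay above 0 and 27.1% were separated in this way. The members were chosen with earlier results of these data known, and beyond them the direction differed by list. Of 38 other tested autophagy genes, 24 values lay above 0 and 14 below, with a median of 0.08. In that list 13 genes were separated as higher (34.2%) and 7 as lower (18.4%). Of 18 selective autophagy receptors and adaptors, 16 values lay above 0 and 2 below, with a median of 0.40. In this list, also drawn up with earlier results known, 12 genes were separated as higher (66.7%) and 1 as lower (5.56%). GABARAPL1 was the 1 of 10 that passed as higher, against 0.606% of all tested genes.

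GABARAPL1 encodes an ATG8 protein of the GABARAP branch and lies on chromosome 12 at 10212458 to 10223130 on the plus strand (GENCODE v29, GRCh38). The controls held 552 and 428 counts of it and the knockdown libraries 1245 and 1433, or 19.7 and 25.4 CPM against 61.4 and 60.3 CPM. The knockdown libraries lay close together and far above both controls. The mean went from 22.6 ± 4.02 to 60.9 ± 0.773 CPM (SD, n = 2 each), a rise of 2.7 times, with a log2 fold change of 1.43 ± 0.20 (SE) and an edgeR adjusted p of 0.0483. Adjusted p over all called genes spanned 0.0323 to 0.0498, so GABARAPL1 stood near the threshold. The call was lost with limma-voom (adjusted p = 0.0558), without control 1 (edgeR adjusted p = 0.158) and without knockdown 2 (edgeR adjusted p = 0.0916), while its log2 fold change on leaving out 1 library stayed between 1.25 and 1.64. Some 8.1% of its exon positions are shared with AC115676.1 on the opposite strand, and the sources used here do not say whether counting used strand. Its promoter window holds no CACGTG. The 100 bases before its RefSeq start site, chr12:10212777-10212876 on the plus strand, are shown because it is the one member that passed.

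GABARAPL1: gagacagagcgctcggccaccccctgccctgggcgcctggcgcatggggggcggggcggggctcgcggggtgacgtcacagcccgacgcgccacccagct

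Of the other 2 genes of this group, MAP1LC3B encodes the most used LC3 marker of autophagosomes. It measured 86.2 and 120 CPM in the controls against 130 and 162 CPM (log2 fold change 0.51 ± 0.21, SE, edgeR adjusted p = 0.220). SQSTM1, the receptor p62 that links ubiquitin-tagged cargo to ATG8 proteins, measured 123 and 163 CPM against 198 and 197 CPM (0.47 ± 0.19, edgeR adjusted p = 0.20). Both knockdown libraries exceeded both controls for each gene, by a margin smaller than the gap between the controls, and neither passed the test. Without control 1 the log2 fold changes were 0.28 for MAP1LC3B and 0.27 for SQSTM1. Some 22.0% of the SQSTM1 exon positions are shared with MGAT4B and MRNIP on the opposite strand.

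ULK1, the kinase that starts autophagy, measured 43.2 and 50.2 CPM in the controls and 104 and 71.0 CPM in the knockdown. Both knockdown libraries were above both controls, with a wider gap between them than between the controls. Its mean was 46.7 ± 4.98 CPM against 87.5 ± 23.4 CPM (SD, n = 2 each), with a log2 fold change of 0.91 ± 0.22 and an edgeR adjusted p of 0.0796. ATG14, which directs the Beclin 1 complex to the site of vesicle formation, measured 23.4 and 20.8 CPM against 26.8 and 33.4 CPM (0.45 ± 0.21, edgeR adjusted p = 0.259). BECN1, Beclin 1, measured 83.2 and 87.9 CPM against 92.9 and 95.8 CPM (0.14 ± 0.16, edgeR adjusted p = 0.640). The groups did not overlap for ATG14 or BECN1 either, though the BECN1 gap was within its standard error.

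The 4 genes of vesicle growth had log2 fold changes of 0.21 to 0.54, and none passed. ATG9A, a membrane protein that seeds the vesicle, was the single one without overlap, at 62.5 and 51.3 CPM against 64.8 and 71.3 CPM (0.26 ± 0.18), and 38.8% of its exon positions are shared with AC068946.2 on the same strand. ATG16L1, which positions the enzyme that lipidates ATG8 proteins, measured 37.2 and 43.1 CPM against 39.1 and 54.9 CPM (0.23 ± 0.22), with overlap. WIPI1, which binds the phosphoinositide on the growing membrane, measured 13.2 and 34.3 CPM against 34.8 and 33.7 CPM (0.54 ± 0.40). Some 28.1% of its exon positions are shared with AC007780.1 and ARSG on the opposite strand. Its control 1 stood apart from the other 3 libraries, and the log2 fold change was -0.01 without control 1 and 1.40, then past the threshold, without control 2. ATG2A, a lipid transfer protein, measured 24.9 and 36.7 CPM against 34.7 and 36.6 CPM, again with control 1 the lowest.

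**Figure D2:**
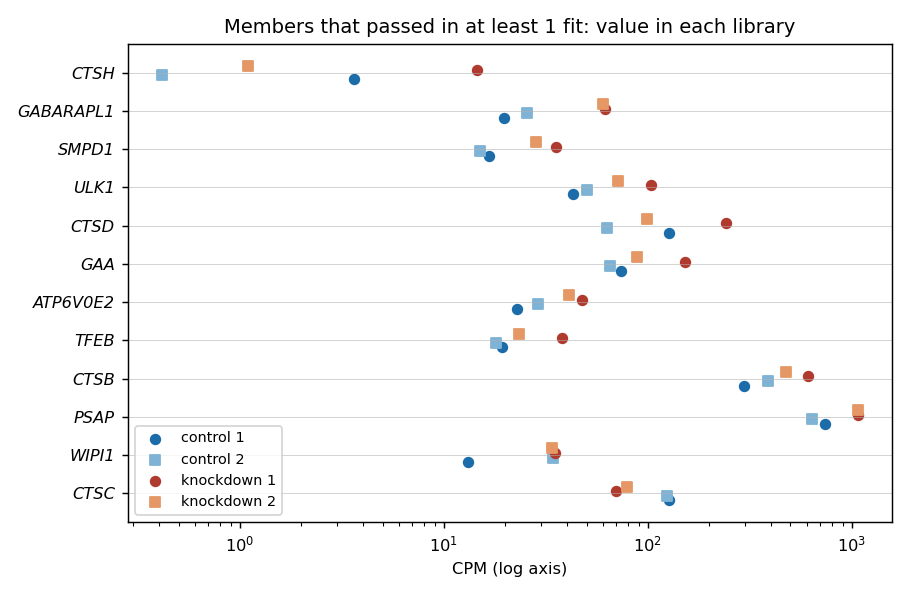
CPM in each of the 4 libraries (x axis, log scale; circles and squares are samples 1 and 2, blue is control and red or orange is knockdown) for the members that passed in at least 1 of the fits run. The 2 knockdown libraries of GABARAPL1, at 61.4 and 60.3 CPM, lie well to the right of its controls, while CTSD and CTSH differ as much within a group as between groups.

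The transcription factors differed from each other in their values. TFEB measured 19.2 and 17.9 CPM in the controls and 37.8 and 23.3 CPM in the knockdown. Both knockdown libraries were above both controls, with most of the difference in knockdown 1. The log2 fold change was 0.72 ± 0.26 (edgeR adjusted p = 0.170), and it was 0.34 without knockdown 1. Its paralog TFE3 measured 64.5 and 88.4 CPM against 79.9 and 79.1 CPM, with both knockdown libraries between the controls (0.06 ± 0.20, edgeR adjusted p = 0.891). TFE3 was the more abundant of the pair in every library, with group means of 17.8 and 18.6 CPM per kb of exon against 3.29 and 5.41 CPM per kb for TFEB. The difference between the fold changes of the paralogs was not tested.

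The 10 lysosomal proteases had no gene past the threshold, a median log2 fold change of 0.28, 8 values above 0 and 2 below. Cathepsin C (CTSC), a dipeptidase that activates granule proteases, was the lowest of all members, at 127 and 124 CPM in the controls and 70.1 and 78.8 CPM in the knockdown. The groups were far apart compared with the spread inside them. Its mean was 126 ± 1.95 CPM against 74.4 ± 6.13 CPM (SD, n = 2 each), with a log2 fold change of -0.76 ± 0.16 and an edgeR adjusted p of 0.0632. DESeq2 called it lower.

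Cathepsin B (CTSB), a cysteine protease, measured 295 and 388 CPM in the controls against 613 and 476 CPM in the knockdown (0.67 ± 0.21, edgeR adjusted p = 0.129), with no overlap. Its relative cathepsin L (CTSL) measured 106 and 132 CPM against 134 and 174 CPM (0.37 ± 0.20, edgeR adjusted p = 0.325), where control 2 nearly reached knockdown 1 and the log2 fold change was 0.21 without control 1 and 0.17 without knockdown 2. CTSV, the close paralog of CTSL in skin and thymus, measured 38.0 and 29.1 CPM against 29.8 and 30.1 CPM (-0.17 ± 0.20, edgeR adjusted p = 0.673). Per kb, CTSL was the more abundant of these paralogs, with group means of 50.4 and 65.1 CPM per kb against 7.14 and 6.37 CPM per kb for CTSV. Reads that fit both could have been split between them, and the sources used here do not say how shared reads were counted.

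For 2 proteases, sample 1 was far above sample 2 in both groups. Cathepsin D (CTSD), the main aspartic protease, measured 127 and 63.0 CPM in the controls and 242 and 99.4 CPM in the knockdown (0.84 ± 0.45, edgeR adjusted p = 0.319). Sample 1 held 2.02 times the level of sample 2 in the controls and 2.44 times in the knockdown. Without 1 library the log2 fold change lay between 0.07 and 1.43, and 41.7% of its exon positions are shared with AC068580.4 on the same strand. Cathepsin H (CTSH), an aminopeptidase, had 101 and 7 counts in the control libraries against 293 and 26, ratios of 8.68 and 13.2 between samples 1 and 2 on the CPM scale. Its log2 fold change of 1.88 ± 1.15, the highest of the members, had an edgeR adjusted p of 0.384 and was -0.91 without knockdown 1.

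Cathepsin S (CTSS), a protease best known from antigen-presenting cells, was near the detection limit, with 1 and 8 counts in the control libraries against 14 and 22. The macrophage and immune markers CSF1R and CD14 were the ones detected among those listed above, and their part in the CTSS counts was not tested. Cathepsin Z (CTSZ), a carboxypeptidase, had the highest level of the proteases per kb, and measured 257 and 311 CPM against 358 and 294 CPM (0.20 ± 0.19), with overlap. CTSA and TPP1 overlapped as well, at 177 and 141 CPM against 206 and 157 CPM and at 84.4 and 75.2 CPM against 96.3 and 81.7 CPM. Some 28.5% of the CTSA exon positions are shared with AL008726.1, NEURL2 and PLTP on the opposite strand.

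The 8 glycosidases and lipid hydrolases had 7 log2 fold changes above 0 and 1 below, a median of 0.37, and none past the threshold. Acid sphingomyelinase (SMPD1), which cuts sphingomyelin to ceramide, had the largest value, at 16.6 and 15.0 CPM in the controls and 35.3 and 28.4 CPM in the knockdown. The groups lay well apart. Its means were 15.8 ± 1.13 and 31.9 ± 4.92 CPM (SD, n = 2 each), a ratio of 2.01, with a log2 fold change of 1.01 ± 0.21 and an edgeR adjusted p of 0.0619. Acid alpha-glucosidase (GAA), which degrades glycogen and is lost in Pompe disease, measured 73.4 and 65.1 CPM against 152 and 88.6 CPM (0.79 ± 0.26, edgeR adjusted p = 0.136). There was no overlap, but knockdown 1 was far above knockdown 2, and the log2 fold change was 0.37 without knockdown 1.

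Beta-galactosidase (GLB1) measured 118 and 117 CPM against 163 and 146 CPM (0.40 ± 0.16, edgeR adjusted p = 0.20). Acid lipase (LIPA), which splits cholesteryl esters and triglycerides, measured 105 and 107 CPM against 136 and 124 CPM (0.29 ± 0.16, edgeR adjusted p = 0.328). Sialidase 1 (NEU1), the most abundant of these enzymes per kb, measured 141 and 184 CPM against 175 and 237 CPM (0.34 ± 0.22, edgeR adjusted p = 0.395). GLB1 and LIPA had tight pairs with no overlap, and NEU1 overlapped, its log2 fold change being 0.15 without control 1 and 0.10 without knockdown 2. HEXA, the alpha subunit of beta-hexosaminidase, measured 38.7 and 40.5 CPM against 60.2 and 51.3 CPM, without overlap. ASAH1, acid ceramidase, measured 128 and 107 CPM against 143 and 121 CPM. The alpha-galactosidase gene GLA was the one with both knockdown libraries lower, at 38.3 and 32.1 CPM against 30.8 and 29.6 CPM, by a margin no larger than the gap between its controls.

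Prosaposin (PSAP), the precursor of the saposins that present sphingolipids to these enzymes, was the most abundant cofactor. It measured 741 and 635 CPM in the controls and 1068 CPM in each knockdown library. The knockdown pair sat above both controls, with means of 688 ± 74.9 and 1068 ± 0.113 CPM (SD, n = 2 each). The log2 fold change was 0.63 ± 0.18 with an edgeR adjusted p of 0.102. Progranulin (GRN), a cofactor for lysosomal proteolysis, measured 478 and 427 CPM against 658 and 534 CPM, also without overlap (0.40 ± 0.19, edgeR adjusted p = 0.262). NPC2, the soluble cholesterol carrier, measured 150 and 154 CPM against 168 and 125 CPM, with the controls between the knockdown libraries (-0.05 ± 0.19, edgeR adjusted p = 0.898).

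The 5 membrane proteins had smaller values, the median log2 fold change being 0.12, and none passed the threshold. LAMP1, the most used lysosomal membrane marker, measured 388 and 350 CPM against 420 and 390 CPM (0.13 ± 0.17, edgeR adjusted p = 0.679). The groups missed each other by less than 1 standard error. Its paralog LAMP2 measured 134 and 121 CPM against 138 and 124 CPM (0.04 ± 0.16, edgeR adjusted p = 0.916), and the tetraspanin CD63 measured 335 and 351 CPM against 362 and 326 CPM (0.01 ± 0.16, edgeR adjusted p = 0.989). The groups overlapped for both genes. Per kb, LAMP1 exceeded LAMP2, at 64.3 and 70.5 CPM per kb in the groups against 23.1 and 23.7 CPM per kb. NPC1, the membrane partner of NPC2, measured 70.8 and 129 CPM against 103 and 164 CPM, with sample 2 the higher in both groups. The calcium channel MCOLN1 measured 14.8 and 15.1 CPM against 19.0 and 13.6 CPM, with overlap.

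The proton pump subunits did not move as a block. Of 19 tested subunits, 12 had a log2 fold change above 0 and 7 below, with a median of 0.02, and none passed the test. For 8 subunits (42.1%) both knockdown libraries were above both controls, against 27.1% of all tested genes, and for 3 (15.8%) both were below, against 27.8%. The 8 tested V0 subunits had a median of 0.07, with 4 above and none below in this sense, and the 11 tested V1 subunits a median of 0.02, with 4 above and 3 below.

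In the V0 sector the higher values lay with ATP6V0E2, ATP6V0D1 and ATP6V0A1. ATP6V0E2, a small membrane subunit, measured 22.7 and 28.8 CPM in the controls and 47.5 and 41.0 CPM in the knockdown. The groups were separated by more than the spread of either. Its log2 fold change was 0.78 ± 0.20 with an edgeR adjusted p of 0.0888. About 13% of its exon positions are shared with AC092681.1 and the antisense gene ATP6V0E2-AS1 on the opposite strand, whose reads cannot be told apart if counting ignored strand. ATP6V0D1, the stalk that couples the sectors, measured 147 and 149 CPM against 201 and 225 CPM (0.52 ± 0.16, edgeR adjusted p = 0.12). With a correction for transcript GC content the log2 fold change was 0.39 for ATP6V0D1 and 0.83 for ATP6V0E2. ATP6V0A1, one of the alternative proton channel subunits, measured 52.4 and 55.3 CPM against 74.6 and 74.2 CPM. Its alternatives ATP6V0A2 and ATP6V0A4 overlapped between groups, at 42.2 and 45.7 CPM against 35.4 and 46.6 CPM and at 4.83 and 7.31 CPM against 3.95 and 5.81 CPM.

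ATP6V0E1, the paralog of ATP6V0E2, measured 96.6 and 94.8 CPM against 107 and 104 CPM (0.14 ± 0.16, edgeR adjusted p = 0.639), and ATP6V0B, a proteolipid of the rotor ring, measured 108 and 128 CPM against 105 and 121 CPM (-0.06 ± 0.17, edgeR adjusted p = 0.874). ATP6V0B overlapped, and the ATP6V0E1 groups were apart by less than their standard error. The main proteolipid of the rotor ring, ATP6V0C, was listed with 8 and 11 counts in the control libraries against 8 and 12. In GENCODE v29, 72.1% of its exon positions are shared with AC093525.1 and AC093525.2 on the same strand, which had 0 counts in every library. Whether reads that fit several genes were left out was not tested, and its level cannot be read from these counts.

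In the V1 sector the 3 most abundant subunits per kb were ATP6V1F, ATP6V1G1 and ATP6V1C1. ATP6V1F measured 210 and 203 CPM against 230 and 218 CPM (0.12 ± 0.16, edgeR adjusted p = 0.70), with 23.7% of its exon positions shared with KCP on the opposite strand. ATP6V1G1, a stalk subunit, measured 112 and 119 CPM against 116 and 118 CPM, with the knockdown pair inside the range of the controls (0.02 ± 0.16, edgeR adjusted p = 0.964). ATP6V1C1, which regulates joining of the sectors, measured 239 and 203 CPM against 164 and 191 CPM (-0.32 ± 0.18, edgeR adjusted p = 0.336). It shared this direction without overlap with the catalytic subunit ATP6V1A, at 115 and 99.2 CPM against 95.1 and 92.1 CPM, and with the nucleotide-binding subunit ATP6V1B2, at 128 and 117 CPM against 79.0 and 114 CPM. In all 3 the nearest values of the groups were closer than the 2 controls were to each other. Transcript GC content was 39.7% for ATP6V1C1, 40.6% for ATP6V1A and 40.0% for ATP6V1B2, against a median of 50.35% over the tested members. With a correction for GC content the ATP6V1C1 log2 fold change was -0.17.

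The opposite direction without overlap was seen for ATP6V1E1, a stalk subunit, at 85.6 and 92.4 CPM against 112 and 108 CPM, and for ATP6V1H, at 76.9 and 84.6 CPM against 85.7 and 93.7 CPM. ATP6V1C2, an alternative to ATP6V1C1, was low and had 1.82 and 1.84 CPM against 3.45 and 3.12 CPM. Some 29.9% of its exon positions are shared with PDIA6 and AC092687.3 on the opposite strand, whose reads cannot be told apart if counting ignored strand. ATP6V1D overlapped, at 69.1 and 82.0 CPM against 79.4 and 78.6 CPM. Alternative forms known from other tissues were low or not seen: ATP6V1E2 lay between 6.12 and 6.90 CPM, ATP6V1G2 had 18 and 9 counts against 8 and 19, and the kidney form ATP6V1B1 and ATP6V1G3 had 0 counts in all 4 libraries. ATP6V0D2, known from osteoclasts, had 1 count in knockdown 1 and 0 elsewhere. These last 3 genes are the untested members. The neighbour gene ATP6V1FNB had 36 and 12 counts in the control libraries against 14 and 13 (-0.72 ± 0.54, edgeR adjusted p = 0.479).

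**Figure D3:**
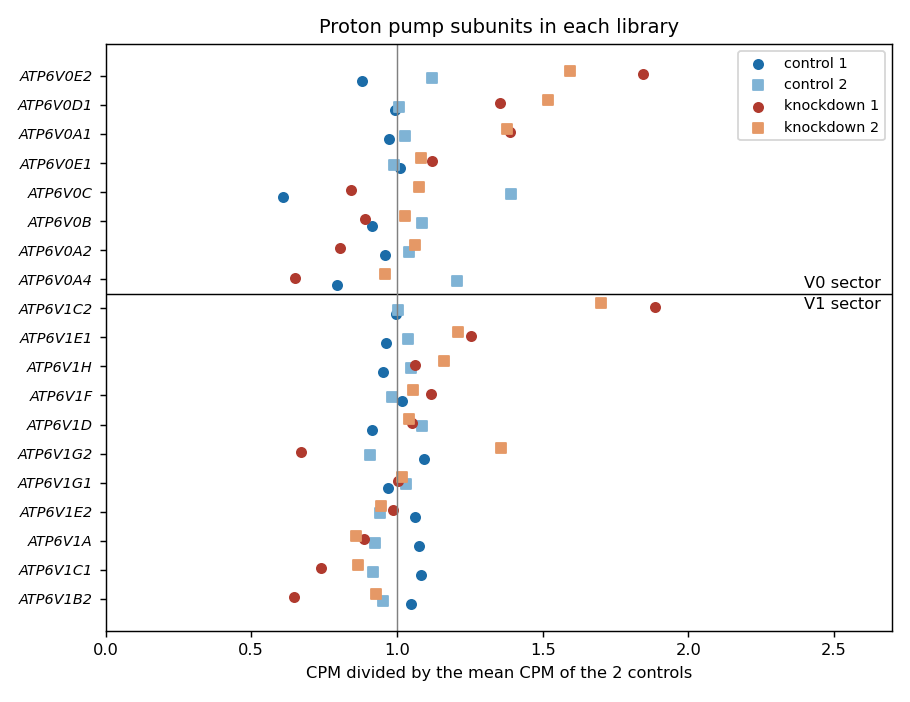
CPM of the 19 tested proton pump subunits in each library divided by the mean CPM of the 2 controls (x axis, linear), V1 sector below the line and V0 sector above. The knockdown libraries of ATP6V0E2, ATP6V0D1 and ATP6V0A1 lie right of both controls, those of ATP6V1C1, ATP6V1A and ATP6V1B2 lie left. ATP6V1C2, a gene of low level, has both knockdown libraries right of tight controls, and those of ATP6V1G2 lie on either side of its controls.

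Ordered by level per kb of exon in the controls, the list ran from ATP6V1F at 262 CPM per kb through PSAP at 212, CTSZ at 139, CD63 at 130 and GRN at 123 CPM per kb. ATP6V1G1 (88.9), LAMP1 (64.3), ATP6V0E1 (59.0), NPC2 (55.3) and CTSL (50.4 CPM per kb) followed. Neighbours such as CTSZ, CD63 and GRN overlapped in their control values or nearly so, and their order is not firm. The median over all tested genes, taken over the 4 libraries, was 4.41 CPM per kb. The lowest tested member was CTSS at 0.0604 CPM per kb in the controls. In the knockdown PSAP, at 330 CPM per kb, stood above ATP6V1F, at 284 CPM per kb. Exon lengths were unions over all annotated transcripts, so a gene with long, seldom used exons can be placed too low.

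**Figure D4:**
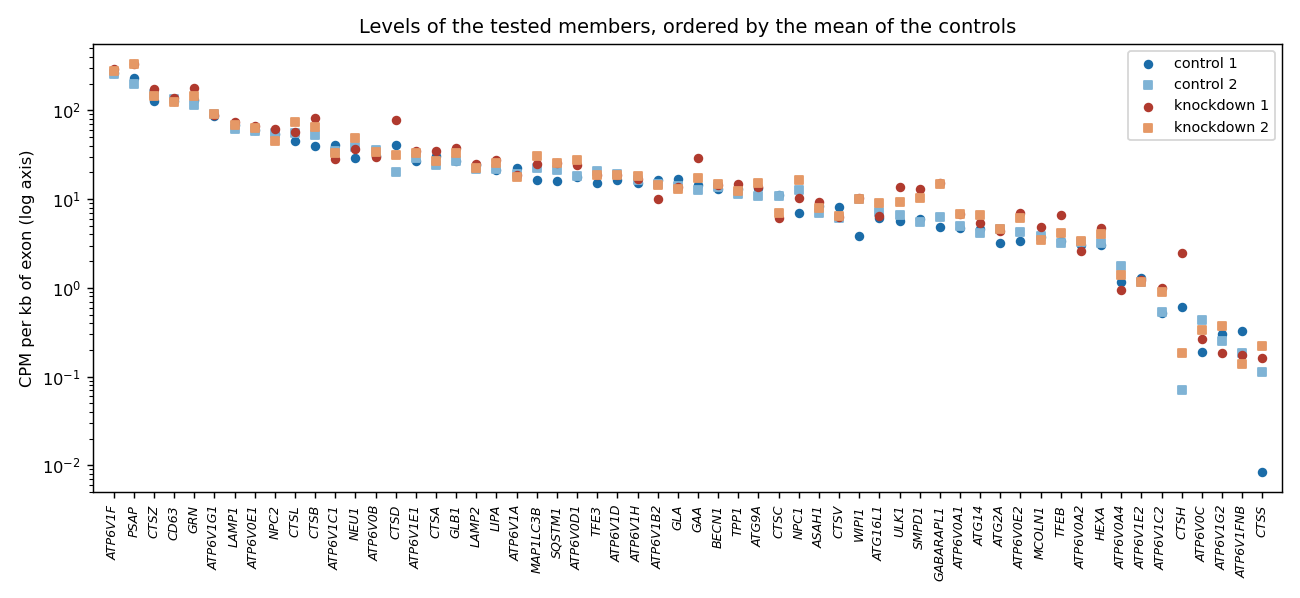
Level of the 58 tested members in CPM per kb of exon (y axis, log scale) in each of the 4 libraries, ordered from left to right by the mean of the controls. Levels run from 262 CPM per kb for ATP6V1F to 0.0604 CPM per kb for CTSS, and the 4 libraries of most genes lie close together compared with the range over genes.

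Members with the promoter element were set beside those without it, and the difference was not tested. The 12 members with CACGTG in any of their windows had a median log2 fold change of 0.26, with 11 above 0, 5 (41.7%) separated as higher and none as lower. The 33 tested members with no window that holds it had a median of 0.26, with 27 above 0, 16 (48.5%) separated as higher and 2 as lower. Over all tested genes 27.1% were separated as higher. Members with the element included GAA (0.79), ATP6V0E2 (0.78) and ATP6V0D1 (0.52), but also LAMP1 (0.13), ATP6V1G1 (0.02), CD63 (0.01) and ATP6V0B (-0.06). GABARAPL1 and SMPD1 are not among them.

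Of 190 further genes in 7 lists of the same pathways, 183 were tested. Of these, 5 rose, none fell, and 106 had a log2 fold change above 0, with a median of 0.11. Over all tested genes 0.606% passed as higher. The lists were drawn up with earlier results of these data known, TP53INP1 and possibly others of the 5 among them. The list that holds TP53INP1 gave 3 of the 5 calls. The 5 of 183 is thus no independent evidence of a higher share in these pathways. All 5 calls were lost with limma-voom (adjusted p = 0.0558 each), without control 1 and without knockdown 2.

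Among 35 other lysosomal hydrolases (median log2 fold change 0.29), 1 gene passed. It was cathepsin F (CTSF), a cysteine protease, at 25.0 and 25.6 CPM in the controls and 66.4 and 52.0 CPM in the knockdown, which rose by 1.23 ± 0.19 on the log2 scale (edgeR adjusted p = 0.0483). Both knockdown libraries were far above the near-equal controls. ACP5, an acid phosphatase whose exons overlap ZNF627, measured 7.12 and 7.66 CPM against 23.6 and 16.5 CPM (1.44 ± 0.27, edgeR adjusted p = 0.0548). It passed with DESeq2 (adjusted p = 0.00029), without a filter and with the GC correction (edgeR adjusted p = 0.0484). Among 23 other membrane proteins and transporters (median 0.14), LAPTM5 rose, from 0.608 and 0.772 CPM to 4.69 and 5.77 CPM (2.93 ± 0.42, edgeR adjusted p = 0.0483). LAPTM5 is known as a lysosomal membrane protein of blood cells, and CSF1R and CD14 were the immune markers detected while PTPRC and TYROBP were at 0. The part of such cells in the LAPTM5 value was not tested. MFSD8, a transporter whose exons overlap ABHD18, measured 15.9 and 16.5 CPM against 10.8 and 9.85 CPM (-0.65 ± 0.23, edgeR adjusted p = 0.165).

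In the list of 18 selective autophagy receptors and related adaptors 3 rose, none fell, and the median log2 fold change was 0.40. The 3 were TP53INP1, TP53INP2 and DEPP1. None of the other genes on the list, which include the cargo receptors, passed. Over all tested genes 0.606% passed as higher, and the list, drawn up with earlier results known, is no independent evidence of its direction. TP53INP1, a p53 target that binds ATG8 proteins, went from 1.00 and 1.13 CPM to 14.5 and 7.79 CPM (3.38 ± 0.43, edgeR adjusted p = 0.0483). Its paralog TP53INP2, which binds ATG8 proteins as well, went from 21.5 and 23.5 CPM to 67.9 and 54.2 CPM (1.44 ± 0.20, edgeR adjusted p = 0.0483). DEPP1, a FOXO target whose exons overlap RASSF4, went from 17.9 and 15.4 CPM to 63.3 and 55.8 CPM (1.83 ± 0.19, edgeR adjusted p = 0.0483). For all 3, both knockdown libraries stood far above both controls.

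No gene passed in the other 4 lists, though some of those named here did in other fits. Of all genes tested in each, DESeq2 called 8.59% and the fit without a filter 8.25%. Of 38 other autophagy genes (median 0.08), ZFYVE1, which marks the membrane where autophagosomes form, came nearest, at 15.5 and 19.1 CPM against 38.1 and 41.3 CPM (1.20 ± 0.20, edgeR adjusted p = 0.0501). PLEKHM1, an adaptor for vesicle fusion with lysosomes, measured 24.1 and 26.1 CPM against 47.7 and 48.6 CPM (0.94 ± 0.18, edgeR adjusted p = 0.0548). Both had separate groups. ZFYVE1 passed with DESeq2 (adjusted p = 0.000256), with RLE scaling, with either other filter and with the GC correction, and PLEKHM1 passed with DESeq2 (adjusted p = 0.00296) and without a filter. Of 26 genes for sorting enzymes to the lysosome (median -0.02), VPS18, a subunit of the tethering complexes of endosomes and lysosomes, measured 13.6 and 14.7 CPM against 27.5 and 27.4 CPM (0.96 ± 0.20, edgeR adjusted p = 0.0619). The sorting receptor SORT1 measured 17.5 and 11.2 CPM against 23.6 and 26.3 CPM (0.79 ± 0.26). The groups did not overlap for either gene. VPS18 passed with DESeq2 (adjusted p = 0.00713) and without a filter, and SORT1 passed without a filter (edgeR adjusted p = 0.0310).

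Of 29 tested regulators of MTORC1 and TFEB (median -0.09), the Rag GTPase genes RRAGD and RRAGC had the smallest p. RRAGD, itself a known TFEB target, measured 0.644 and 1.54 CPM against 3.90 and 3.96 CPM (1.88 ± 0.50, edgeR adjusted p = 0.0932), and RRAGC measured 19.0 and 18.3 CPM against 28.2 and 25.8 CPM (0.53 ± 0.19, edgeR adjusted p = 0.169). Both were separated between groups without passing the adjusted threshold, and RRAGD passed with DESeq2 (adjusted p = 0.0225) and without a filter. Of 14 pump partners under other names (median 0.07), the assembly factors CCDC115 and VMA21 had opposite signs. CCDC115, whose exons overlap IMP4, measured 30.1 and 28.4 CPM against 53.3 and 41.4 CPM (0.70 ± 0.20, edgeR adjusted p = 0.102). It passed without a filter (edgeR adjusted p = 0.0273). VMA21 measured 72.4 and 59.1 CPM against 45.5 and 39.8 CPM (-0.63 ± 0.19, edgeR adjusted p = 0.114).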

How the data were processed

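TruSeq libraries were made, per the labels' protocols, from polyadenylated RNA of 2 control and 2 CELF2 knockdown samples of SCC13 cells. The deposited table holds raw read counts per gene. The submitters' processing notes name HISAT2, edgeR and GRCh38. Nothing in the sources used here names the counting program, its strand setting or how it treated shared reads.

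Genes with too few counts were removed (filterByExpr, minimum count 10), libraries were scaled by TMM, and groups were compared with the quasi-likelihood test of edgeR 4.0.16 (R 4.3.3) over all genes, with Benjamini-Hochberg adjustment and a threshold of 0.05. CPM use the same scaled library sizes. Exon lengths, positions and overlaps came from GENCODE v29 (58542 of 60617 IDs matched), promoter windows from RefSeq. The test was tried on simulated counts with large changes and the same dispersion in all genes. That trial does not show how it does with small changes or uneven spread. The members and gene lists were chosen with earlier results of these data known. Members were named with all values if they passed in any fit, were among the 3 most abundant per kb in their role, or belonged to the paralog pairs CTSL and CTSV, LAMP1 and LAMP2, or TFEB and TFE3, and others were added by CPM alone. Of each pathway list, up to 2 genes with the smallest p were named. Alternatives were DESeq2 1.42.0, limma-voom (limma 3.58.1), RLE scaling, no filter, a minimum count of 50, a correction for transcript GC content, the replicate number as a block, and leaving out each library.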

Additional observations from a re-analysis of the deposited data

How the results depend on the processing

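The number of genes called over all tested genes was 133 (92 higher and 41 lower), and it was 1303 with DESeq2, 207 with RLE scaling, 184 with a minimum count of 50, 2139 without a filter, 323 with the GC correction (162 higher and 161 lower), 0 with limma-voom and 0 to 616 on leaving out 1 library. Members called higher numbered 6 with DESeq2, 10 without a filter, 0 with limma-voom (16 members at an unadjusted p below 0.05) and 0 to 2 on leaving out 1 library. The 0 was reached on leaving out control 1 (8 members at an unadjusted p below 0.05) or knockdown 2. Members called lower numbered 1 with DESeq2 and 1 without a filter. The fit without a filter called 8.25% of its 25916 genes. Its higher members included CTSD (edgeR adjusted p = 0.00083) and CTSH (edgeR adjusted p = 5.4e-05), which differed widely between the samples of a group. The members' median log2 fold change was 0.23 without a filter, 0.25 with a minimum count of 50 and 0.16 to 0.32 on leaving out 1 library, against 0.21, and 41 to 47 members had a value above 0 in every alternative run. The cause of these differences was not tested.

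Samples numbered 1, and those numbered 2, share only a number as far as the labels say (correlation of deviations 0.203, 2 pairs). With the replicate block, 1579 genes were called, with 7 members higher and 1 lower. CTSD (adjusted p = 0.0163) and CTSH (adjusted p = 0.0121) were among the 7, and ACP5, ZFYVE1, PLEKHM1, VPS18 and RRAGD passed too.

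The sign turned for 10 of 52 named genes in at least 1 alternative. With the GC correction the members' median log2 fold change was 0.21, with 43 of 58 values above 0, but single members moved. The log2 fold change was then -0.066 for CD63, 0.028 for NPC2 and -0.10 for TFE3. It was smaller than in the main fit for GAA (0.52), CTSD (0.52), GRN (0.19), ATG9A (0.09) and CTSZ (0.06). It was less negative for CTSC (-0.59) and higher for LAMP2 (0.22), LIPA (0.40) and ATG14 (0.51). On leaving out 1 library it lay between -0.043 and 0.46 for ATG16L1, -0.18 and 0.082 for ATP6V0B, -0.035 and 0.075 for ATP6V1G1, -0.063 and 0.074 for CD63, -0.91 and 4.19 for CTSH, -0.33 and 0.036 for CTSV, -0.028 and 0.10 for LAMP2, -0.27 and 0.14 for NPC2, -0.16 and 0.32 for TFE3, and -0.011 and 1.40 for WIPI1. With 2 samples a group and no CELF2 counts to check the labels, depth limited most the genes near 10 counts, such as CTSS and ATP6V1G2. ATP6V0C had 8 to 12 counts in the same libraries where ATP6V0B had 2128 to 3020. Whether its shared exon positions lay behind the low counts of ATP6V0C was not tested.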
